A study of Homo sapiens with 6 samples.

Results

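Glycogen synthesis and breakdown were followed through 9 genes, listed by role with earlier results of these data known: GYG1, GYS1, GBE1, UGP2, PYGB, PYGL, PYGM, GAA and STBD1. They are 9 of the 57878 genes in the count tables, and all 9 passed the filter on low counts and were tested. Glycogen is the branched glucose store of animal cells. Glycogenin primes it, glycogen synthase lengthens its chains from UDP-glucose and the branching enzyme adds branch points. In the cytosol, glycogen phosphorylase releases its glucose, while a share of it is carried into lysosomes and cleared there by acid alpha-glucosidase. Phosphorylation by kinases such as GSK3 switches the synthase off, protein phosphatase 1 switches it on, and phosphorylase kinase activates the phosphorylases.

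RNA of HEK293 cells, an established human embryonic kidney line, was sequenced in 6 libraries, 3 of WT cells and 3 of cells labelled MUL1(-/-). MUL1 is an E3 ubiquitin ligase of the mitochondrial outer membrane, and the study asked how its loss alters metabolism, with HIF-1α and Akt2 among the proteins followed. Both genotypes were grown untreated in high-glucose DMEM with sodium pyruvate, fetal calf serum, glutamine, penicillin and streptomycin. Which MUL1(-/-) clone was sequenced is not given in the sources used here, nor whether the 3 libraries of a genotype came from separate cultures, so p-values measure only the spread between these libraries. A gene's level is its counts per 1000000 counts of the library total after scaling by the TMM factor of the library (CPM), and a difference is given as log2 fold change, libraries labelled MUL1(-/-) minus WT libraries. A gene is termed called when the adjusted p of edgeR's quasi-likelihood test, corrected over the 26053 genes tested, was under 0.05.

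MUL1 itself was counted at 14.6, 14.6 and 18.2 CPM in the WT libraries and at 17.8, 15.9 and 18.6 CPM in the others. The groups overlapped. The log2 fold change, 0.14 with an SE of 0.10, was not called (adjusted p = 0.303). It was 0.07 without WT replicate 2, 0.08 without WT replicate 1, 0.09 without MUL1(-/-) replicate 3 and 0.24 without WT replicate 3 (adjusted p = 0.0528), so the MUL1 count does not check the genotype labels. Library totals, summed over exon bins, ranged from 132849479 to 149317215 counts in WT and from 127466071 to 128125459 counts in libraries labelled MUL1(-/-), and 3 counts correspond to 0.0203 to 0.0234 CPM on the TMM scale. A list of 7 HEK293 markers summed to 1250 to 1448 CPM in WT and to 908 to 1061 CPM in libraries labelled MUL1(-/-). Of these, 3 were called lower and 1 higher, where 18.5% and 19.3% of all tested genes were, and all 7 exceeded 1 CPM. Its part in the results below was not tested.

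Among the 9 genes, glycogen synthase (GYS1) and acid alpha-glucosidase (GAA) rose in the libraries labelled MUL1(-/-), whereas brain-type phosphorylase (PYGB) and the glycogen-binding adaptor STBD1 fell. The other 5 (GYG1, GBE1, UGP2, PYGL and PYGM) were not called. Thus 2 of 9 genes were called higher, where 19.3% of all tested genes were, and 2 of 9 were called lower, where 18.5% were. In both directions together, 4 of 9 were called against 37.8% of all genes tested. The study's rule also asks for an absolute log2 fold change above 1: 0 of the 9 genes met it, against 7.91% of all genes. The largest absolute log2 fold change of the 9 under any alternative, DESeq2 and limma-voom included, was 0.70 (PYGM without WT replicate 3), and 4 of the 9 had an unadjusted p under 0.05 by edgeR. The 9 genes had a median absolute log2 fold change of 0.33, compared with 0.29 over all tested genes. The 2 genotypes did not overlap for 4 of the 9 genes, and for 49.0% of all genes. The counts called were therefore close to the background, and the genes are described one by one. In bulk RNA, fewer cells expressing a gene and less RNA per cell cannot be told apart.

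The sequences before the starts of 3 of the 4 called genes are shown because HIF-1α was among the proteins the study followed and GYS1 is a known hypoxia-induced gene. They are the 250 bases before the RefSeq start (GRCh38.p14), read 5′ to 3′ on the strand of the gene. Capitals mark ACGTG and GCGTG, the core letters of the hypoxia response element, on either strand, together with the E-box CACGTG, which contains ACGTG on both strands. GYS1 is shown from chr19:48993310-48993559 (minus strand), PYGB from chr20:25247835-25248084 (plus strand) and GAA from chr17:80101331-80101580 (plus strand).
GYS1: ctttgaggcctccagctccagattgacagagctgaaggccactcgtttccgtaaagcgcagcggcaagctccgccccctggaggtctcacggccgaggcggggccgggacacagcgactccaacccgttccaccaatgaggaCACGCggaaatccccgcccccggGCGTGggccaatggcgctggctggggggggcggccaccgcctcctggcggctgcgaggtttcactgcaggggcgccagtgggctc
PYGB: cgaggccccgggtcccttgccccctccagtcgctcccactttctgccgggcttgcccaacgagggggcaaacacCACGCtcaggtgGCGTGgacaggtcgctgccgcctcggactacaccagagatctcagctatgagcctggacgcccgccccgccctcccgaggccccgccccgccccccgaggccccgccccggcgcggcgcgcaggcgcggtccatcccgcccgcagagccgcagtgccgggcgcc
GAA: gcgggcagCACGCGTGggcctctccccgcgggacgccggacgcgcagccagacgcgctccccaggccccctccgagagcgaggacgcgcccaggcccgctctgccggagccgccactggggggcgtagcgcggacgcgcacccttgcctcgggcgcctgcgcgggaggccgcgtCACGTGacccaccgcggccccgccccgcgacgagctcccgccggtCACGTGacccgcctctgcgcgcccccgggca

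The RefSeq table held a start for 8 of the 9 genes, PYGM being the one unmatched. In these upstream windows the core letters occurred in 7 of 8 genes, and in 43.2% of all 35116 windows of the same length. They were present 2 times each in GYS1 and PYGB, which moved in opposite directions, as well as 2 times each in GBE1 and UGP2, which were not called. STBD1 held 1 match, and PYGL held 0. RefSeq and the exon bins place some starts differently. The windows of STBD1, GBE1 and PYGL lie wholly inside exon bins of these genes, so they are not upstream of the earliest annotated start. For this reason the window of STBD1, a called gene, is not printed. Those of GYG1 and UGP2 run 199 and 29 bases into such bins. Windows of genes not called are not printed. The printed windows run 1 base (GYS1), 16 bases (PYGB) and 25 bases (GAA) into the bins. CACGTG, a letter string bound by several helix-loop-helix factors, occurred in GAA (2 times) and GYG1 (1 time), and in 6.34% of all windows. Of the 6 core matches in GAA, 4 lie inside its E-boxes. The windows of the 8 genes had a GC content of 67.2% to 81.2%, compared with a median of 58.0% over all windows. These matches describe letters only.

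Of the genes that build glycogen, GYS1 (ENSG00000104812, chromosome 19 from 48968125 to 48993310, minus strand), the synthase of tissues other than liver, had the smallest p of the 9. Its level was 62.1, 58.1 and 58.1 CPM in the WT libraries and 86.9, 82.7 and 84.6 CPM in the libraries labelled MUL1(-/-). Every library of the latter exceeded every WT library, and the means of 59.4 ± 2.30 and 84.8 ± 2.11 CPM (SD, n = 3 each) were far apart relative to their spread. The log2 fold change was 0.51 (SE 0.07, 1.43-fold, adjusted p = 3.65e-05 by edgeR), and 28.0% of all tested genes had a larger absolute log2 fold change.

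Priming, branching and UDP-glucose supply gave no call. GYG1 (ENSG00000163754, chromosome 3 from 148991341 to 149027668, plus strand), the glycogenin that starts a new particle, had 54.1, 51.0 and 48.1 CPM in WT and 53.0, 54.3 and 50.9 CPM in the libraries labelled MUL1(-/-). The ranges overlapped, and the log2 fold change of 0.05 had a 95% confidence interval of -0.11 to 0.20 (adjusted p = 0.656). GBE1 (ENSG00000114480, chromosome 3 from 81489699 to 81762161, minus strand), the branching enzyme, was read at 10.0, 9.20 and 11.1 CPM in WT and at 10.0, 10.7 and 10.7 CPM in the others. Here too the groups overlapped, with a log2 fold change of 0.05 (interval -0.15 to 0.26, adjusted p = 0.696). UGP2 (ENSG00000169764, chromosome 2 from 63840940 to 63891562, plus strand), which makes UDP-glucose, had 60.7, 59.5 and 61.6 CPM in WT and 55.1, 62.8 and 60.0 CPM in the libraries labelled MUL1(-/-). For UGP2 the log2 fold change was -0.03 (interval -0.18 to 0.12, adjusted p = 0.767), so a change of the size seen for GYS1 lies outside the intervals of all 3 genes.

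The phosphorylases, which release glucose 1-phosphate from glycogen, differed from one another. PYGB (ENSG00000100994, chromosome 20 from 25248069 to 25298014, plus strand), the brain-type enzyme, had 67.1, 64.3 and 67.9 CPM in WT and 50.4, 46.5 and 56.8 CPM in the libraries labelled MUL1(-/-). All of the latter were lower than all WT libraries, with means of 66.4 ± 1.87 and 51.2 ± 5.21 CPM (SD, n = 3 each). PYGB fell by 0.37 on the log2 scale (0.77-fold, SE 0.08, adjusted p = 0.00189). PYGL (ENSG00000100504, chromosome 14 from 50857891 to 50944736, minus strand), named for liver, had 116.7, 111.5 and 98.7 CPM in WT and 115.3, 115.7 and 108.8 CPM in the others. These overlapped, and the log2 fold change of 0.06 had an interval of -0.10 to 0.21 (adjusted p = 0.593). The 6 liver markers examined beside it summed to 0.210 to 0.410 CPM in WT and to 0.421 to 0.533 CPM in the libraries labelled MUL1(-/-).

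PYGM (ENSG00000068976, chromosome 11 from 64746389 to 64760297, minus strand), the muscle phosphorylase that is deficient in McArdle disease, had the lowest level of the 9 genes. Its levels were 0.731, 0.671 and 1.36 CPM in WT and 1.38, 1.14 and 0.928 CPM in the libraries labelled MUL1(-/-), and replicate 3 was the highest of WT and the lowest of the other group. The log2 fold change was 0.33 (interval -0.20 to 0.86, adjusted p = 0.327). Without WT replicate 3 it was 0.70 (adjusted p = 0.0169), and with the most counted exon bin alone it was -0.11. The 6 skeletal muscle markers examined beside it summed to 11.3 to 14.5 CPM in WT and to 19.5 to 20.1 CPM in libraries labelled MUL1(-/-). Most of both sums was TTN, with means of 12.2 and 17.4 CPM. Of the 6, MYH2 and TNNT3 were removed by the filter on low counts. Among those tested, 3 were called higher and 0 lower, where 19.3% and 18.5% of all tested genes were. TNNT3 went the other way, from a mean of 0.0777 to 0.0178 CPM. The part of these markers in the PYGM value was not tested.

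Expressed per kilobase of exon bins, the 3 phosphorylases can be set against each other as shares of their sum. PYGB made up 38.0%, 38.1% and 42.1% of it in the WT libraries and 31.7%, 29.9% and 35.7% in the libraries labelled MUL1(-/-), without overlap. PYGL took 61.6%, 61.6% and 57.1% in WT and 67.6%, 69.4% and 63.8% in the others, also without overlap. The PYGB share thus went from 39.4% ± 2.35 to 32.4% ± 2.97 (SD, n = 3 each), and the PYGL share from 60.1% ± 2.57 to 66.9% ± 2.88. Each of these shifts had p = 0.1 in a two-sided exact permutation test, the smallest p that 3 against 3 libraries allow. PYGM made up 0.495% ± 0.226 and 0.654% ± 0.127 of the sum, with an exact permutation p = 0.3. With PYGM so small a part, the PYGL share nearly mirrors the PYGB share. The PYGL shift is therefore no separate result, and the level of PYGL itself was not called. The longest protein-coding transcripts of the 3 genes were 75.1% to 78.8% identical where they aligned, and the longest stretch any pair had in common was 35 bases.

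GAA and STBD1, listed under lysosomal breakdown, moved in opposite directions. GAA (ENSG00000171298, chromosome 17 from 80101556 to 80119879, plus strand), the acid alpha-glucosidase whose deficiency causes Pompe disease, had 73.2, 71.4 and 59.6 CPM in WT and 83.9, 83.5 and 105.5 CPM in the libraries labelled MUL1(-/-). The groups did not overlap, although the lowest WT library and the highest of the others, both replicate 3, stood away from their groups. Means were 68.0 ± 7.40 and 91.0 ± 12.6 CPM (SD, n = 3 each). On the log2 scale GAA rose by 0.42 (1.34-fold, SE 0.10, adjusted p = 0.00434). Without WT replicate 3 it was 0.32 (adjusted p = 0.0169), and without MUL1(-/-) replicate 3 it was 0.30 (adjusted p = 0.0124).

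STBD1 (ENSG00000118804, chromosome 4 from 76306026 to 76311599, plus strand) binds glycogen through its starch-binding domain and tethers it to membranes. It had 5.93, 6.10 and 5.05 CPM in WT and 3.98, 3.99 and 4.10 CPM in the libraries labelled MUL1(-/-). All of the latter were lower, at 4.03 ± 0.0684 CPM against 5.69 ± 0.565 CPM (SD, n = 3 each). This is a log2 fold change of -0.50 (0.71-fold, SE 0.11, adjusted p = 0.00269). In the count tables this gene carries an identifier joined with FAM47E and the read-through gene FAM47E-STBD1, and 79.3% of its counts lie in bins that the exons of another gene touch. With the bins of STBD1 alone the log2 fold change was -0.48 (adjusted p = 0.0392).

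Set against each other in every library, GYS1 and the phosphorylases gave ratios that did not overlap between the genotypes. For GYS1 to PYGB this was fixed by the values above, GYS1 being higher and PYGB lower without overlap. It is therefore no further support for either difference. The ratio of GYS1 to PYGB, both in CPM per kilobase, was 0.975, 0.952 and 0.902 in WT and 1.82, 1.87 and 1.57 in the libraries labelled MUL1(-/-). The ratio of GYS1 to the sum of PYGB, PYGL and PYGM was 0.371 ± 0.00854 in WT and 0.566 ± 0.00861 in the others (SD, n = 3 each). Both ratios are descriptions of RNA levels and were not tested separately.

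In WT libraries the order of levels per kilobase began with PYGL at 22.7 ± 1.93 CPM per kilobase. PYGB at 14.8 ± 0.417, GYG1 at 14.5 ± 0.855, GYS1 at 14.0 ± 0.542 and GAA at 13.2 ± 1.43 followed. Each of these 4 overlapped the next in the order, while the libraries of PYGB and GAA did not overlap. UGP2 came next at 9.33 ± 0.157, then GBE1 at 1.95 ± 0.179 and STBD1 at 1.66 ± 0.165, whose libraries overlapped, and last PYGM at 0.185 ± 0.0763 CPM per kilobase. In the libraries labelled MUL1(-/-), PYGL again came first at 23.6 ± 0.809. It was followed by GYS1 at 19.96 ± 0.496 and GAA at 17.6 ± 2.44, which overlapped, then by GYG1 at 15.0 ± 0.491, PYGB at 11.5 ± 1.17 and UGP2 at 9.13 ± 0.599 CPM per kilobase. The last 3 places had the same order, with GBE1 at 2.03 ± 0.0736, STBD1 at 1.18 ± 0.0200 and PYGM at 0.231 ± 0.0453. Because a read is counted in every bin it touches, genes divided into many short bins are overstated on this scale.

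Counts per exon bin allowed the 4 called genes to be followed along their length. All 25 tested bins of GYS1 were higher in the libraries labelled MUL1(-/-), with a median log2 fold change of 0.50, and 37 of 38 tested bins of GAA were higher, with a median of 0.40. For PYGB 23 of 24 tested bins were lower (median -0.40), and for STBD1 all 4 tested bins were lower (median -0.48). The direction of the gene was therefore carried by nearly all of its bins, which share reads and are not independent.

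Bins were also tested for a difference from the rest of their own gene identifier by edgeR's exon usage test, over 324820 bins. For STBD1 that identifier is the one joined with FAM47E and FAM47E-STBD1, so its bins were not compared with STBD1 alone. Of 207 tested bins of the 9 genes, 0 were called (adjusted p under 0.05), compared with 1.90% of all bins, and 4 had an unadjusted p under 0.05. The smallest adjusted p was 0.103, in a GAA bin near the start of the gene, from 80101811 to 80101890 on chromosome 17. That bin was called when replicate 3 of the libraries labelled MUL1(-/-) was left out, and 1 PYGL bin was called without WT replicate 3. The remaining bins under that unadjusted p were 1 of PYGL and 2 adjoining bins of UGP2, a selection made after their values were seen. The longer of the UGP2 bins, from 63842059 to 63842101 on chromosome 2, had 24, 21 and 28 counts in WT and 8, 19 and 11 counts in the libraries labelled MUL1(-/-). All of the latter were lower, but its usage relative to the rest of UGP2, -0.83 on the log2 scale, was not called (adjusted p = 0.293). Bins were tested with edgeR only.

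The called genes differed in how their chromosome neighbours behaved. Of the 20 tested genes around GYS1, 10 on each side, 14 were higher in the libraries labelled MUL1(-/-), and their median log2 fold change was 0.37, which leaves 0.14 for GYS1 above its neighbours. A total of 6 of these neighbours were further from 0 in the same direction than GYS1. Around PYGB 16 of 20 genes were lower, the median was -0.35 and the remainder for PYGB was -0.03, with 8 of 20 genes further down than PYGB. In contrast, the neighbours of GAA had a median of -0.08, leaving 0.49, and 1 of 20 exceeded it. Those of STBD1 had a median of -0.07, leaving -0.43, and 2 of 20 were lower than it. Genes that overlap a named gene were not taken as its neighbours, so genes that share bins of STBD1 are not among these. These are descriptions without a test.

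**Figure D1:**
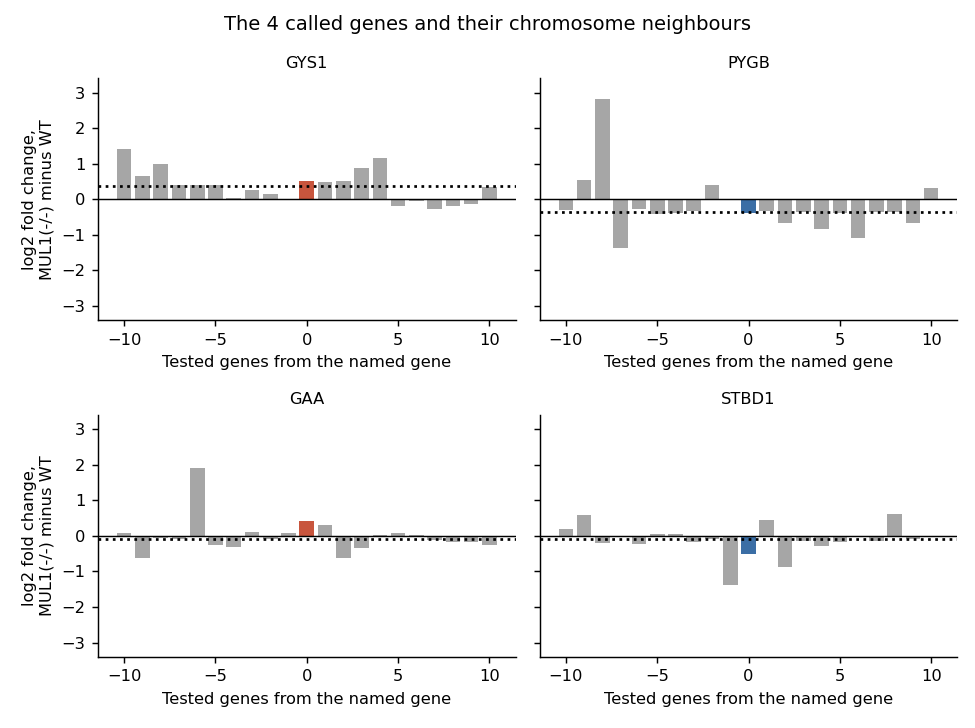
Log2 fold change, libraries labelled MUL1(-/-) minus WT libraries, of the 4 called genes (coloured bars at 0) and of the 10 tested genes on each side along the chromosome (grey bars), with the median of the neighbours as a dotted line. The dotted line lies at 0.37 around GYS1 and at -0.35 around PYGB, close to the genes themselves, and at -0.08 around GAA and -0.07 around STBD1.

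The wider pathway was read through 43 genes listed by role, of which 37 were tested. Of these, 4 were called higher and 8 lower, and 25 were not called. The called share was 32.4%, beside 37.8% of all tested genes, and 0 passed both thresholds of the study. Without the 9 genes above, 2 of 28 tested genes were called higher and 6 were called lower. Of all tested genes, 19.3% were called higher and 18.5% lower. The called share of the 28 was 28.6%. GYG2, PPP1R3A, NHLRC1 and G6PC2 stood at or under 3 counts in every library, and PPP1R3C and G6PC1 were removed by the filter on low counts.

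**Figure D2:**
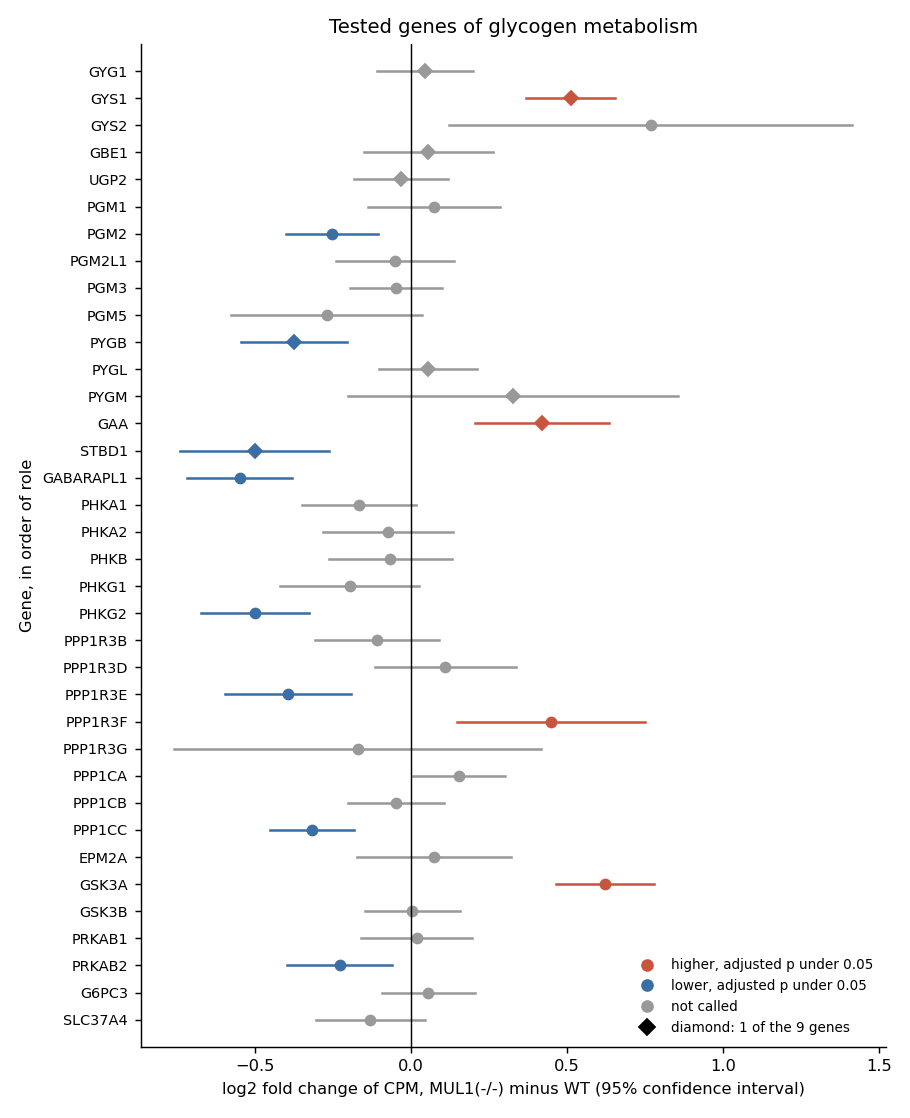
Log2 fold change, libraries labelled MUL1(-/-) minus WT libraries, with 95% confidence interval for 36 tested genes of glycogen metabolism in order of role, red where called higher, blue where called lower and grey where not called, with diamonds for the 9 genes. The called genes lie between -0.55 (GABARAPL1) and 0.62 (GSK3A).

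Among the kinases that act on glycogen synthase, GSK3A had the largest called difference of the list. Its levels were 104.2, 92.3 and 103.4 CPM in WT and 156.7, 142.8 and 162.0 CPM in the libraries labelled MUL1(-/-), without overlap, and the log2 fold change was 0.62 (SE 0.07, adjusted p = 1.68e-05). Its paralog GSK3B had 28.7 ± 0.247 and 28.8 ± 0.945 CPM (SD, n = 3 each), with an interval of -0.15 to 0.16. The AMP-activated kinase subunit PRKAB2, which carries a glycogen-binding domain, fell by 0.23 on the log2 scale (adjusted p = 0.0338) but was called in 9 of 15 alternatives. The call was lost without WT replicate 1 (-0.23, adjusted p = 0.0915) or 2 (-0.24, adjusted p = 0.0824) and without MUL1(-/-) replicate 1 (-0.18, adjusted p = 0.129) or 3 (-0.21, adjusted p = 0.0681). It was also lost with library totals (-0.16) and with no filter on low counts (-0.21). PRKAB1 had a log2 fold change of 0.02 (adjusted p = 0.888).

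Of the 5 phosphorylase kinase subunits, 1 was called: PHKG2, the catalytic subunit of liver and testis, fell by 0.50 on the log2 scale (SE 0.08, adjusted p = 0.000243). Its levels were 56.9, 55.7 and 66.6 CPM in WT and 44.4, 41.1 and 41.2 CPM in the libraries labelled MUL1(-/-). The regulatory subunit PHKA1 had a log2 fold change of -0.17 (adjusted p = 0.143), but by its most counted bin it was -0.70 and called (adjusted p = 3.68e-05), as it was without WT replicate 3 (-0.28, adjusted p = 0.0054).

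Protein phosphatase 1 reaches glycogen through targeting subunits. Among 5 tested, PPP1R3E fell by 0.39 (adjusted p = 0.00431) and PPP1R3F rose by 0.45 (adjusted p = 0.0205), both on the log2 scale. The PPP1R3F call was lost when WT replicate 1, WT replicate 2 or MUL1(-/-) replicate 1 was left out (log2 fold changes of 0.43, 0.34 and 0.31, adjusted p = 0.0728, 0.119 and 0.121). The catalytic subunit PPP1CC fell by 0.32 (adjusted p = 0.00107), whereas PPP1CA had a log2 fold change of 0.15 (adjusted p = 0.0965), which was called with library totals in place of TMM factors (0.22, adjusted p = 0.0164).

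GABARAPL1, the autophagy adaptor that STBD1 binds, had 61.1, 59.9 and 61.9 CPM in WT and 42.4, 45.3 and 37.3 CPM in the libraries labelled MUL1(-/-). It fell by 0.55 on the log2 scale (SE 0.08, adjusted p = 8.63e-05). With it, all 3 listed genes of lysosomal breakdown were called, GAA higher and the other 2 lower, where 37.8% of all tested genes were called. A list of 3 genes does not describe lysosomal breakdown as a whole. Of the 6 genes listed under UDP-glucose supply, UGP2 and members of the PGM family, 1 was called. Whether each of these genes acts in that supply was not examined. The phosphoglucomutase PGM2 fell by 0.25 (adjusted p = 0.0093), and its call was lost with the most counted bin alone (-0.13, adjusted p = 0.301). PGM5 had a log2 fold change of -0.27 (adjusted p = 0.156), which was -0.13 without MUL1(-/-) replicate 1 and -0.40 without MUL1(-/-) replicate 2 (adjusted p = 0.505 and 0.0569). The glucose 6-phosphatase G6PC3 had a log2 fold change of 0.06 (adjusted p = 0.575). SLC37A4, the glucose 6-phosphate transporter, stood at -0.13 (adjusted p = 0.233; without WT replicate 3, -0.23 and called, adjusted p = 0.0255) and the laforin gene EPM2A at 0.08 (adjusted p = 0.65).

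The liver synthase GYS2 was counted at 0.142 to 0.176 CPM in WT and 0.198 to 0.347 CPM in the libraries labelled MUL1(-/-). The groups did not overlap, and the log2 fold change of 0.77 was not called (adjusted p = 0.0583). It was called with library totals in place of TMM factors (0.83, adjusted p = 0.0447) and without MUL1(-/-) replicate 2 (0.97, adjusted p = 0.032), and it was -0.11 by the most counted bin. Of its counts, 97.8% lie in bins that the exons of another gene touch, so they cannot be given to GYS2 alone. With this sharing and at this depth no direction can be given for GYS2.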

How the data were processed

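The authors deposited raw counts per exon bin for each library, not normalized. Per the labels, reads were trimmed with Trimmomatic 0.36 and aligned to GRCh38 with STAR 2.5.2b. The counting program, annotation and strand setting are not given in the sources used here, and a read counts in every bin it touches, so sums exceed reads. Of 597973 bins, those under 2031 joined identifiers (21.0% of counts) were given to each gene whose same-strand GENCODE 29 exons touch them. Bin counts were summed per gene, and CPM were computed on library totals multiplied by TMM factors (0.954 to 1.04). Genotypes were compared with edgeR 4.0.16 (R 4.3.3; TMM, filterByExpr, quasi-likelihood test, Benjamini-Hochberg), tested on simulated data. Alternatives used DESeq2 1.42.0 (the study's test) and limma 3.58.1. Levels, neighbours and figures used Python 3.11.15, and transcripts were aligned with Biopython 1.88. Named genes were MUL1, the 9 genes and, per role of the pathway list, the 2 with the smallest p, or at most 3 counts, and PPP1R3C and G6PC1 were added after their values were seen. The values of 1 listed gene that was not called are not reported here. The genes and lists were chosen with earlier results of these data known. Of the other marker lists, 5 astrocyte genes summed to 50.8 to 53.4 CPM in WT and 43.5 to 54.3 CPM in libraries labelled MUL1(-/-) (2 called higher), 5 fibroblast genes to 22.8 to 30.3 and 26.8 to 35.9 CPM (2 called higher, 1 lower, LUM going from 1.06 to 9.07 CPM) and 5 leukocyte genes to 0.983 to 1.44 and 1.89 to 2.40 CPM (2 called higher). The part of these lists in the results was not tested. Among all tested genes, 19.3% were called higher and 18.5% lower. Counts of same-genotype libraries differed by 3.30 to 11.0 times the counting noise (chi-square over degrees of freedom), so none was taken for a duplicate. Intervals are those of edgeR's fit, and floors cover counting error only.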

Additional observations from a re-analysis of the deposited data

How the results depend on the processing

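Over 15 alternatives, GYS1, GAA, PYGB and STBD1 kept their direction and their call. Their log2 fold changes ranged from 0.48 to 0.60, from 0.30 to 0.48, from -0.46 to -0.31 and from -0.59 to -0.44. With the replicate block the same counts resulted (4 of the 9 genes and 12 of the listed genes), STBD1 being at -0.50 (adjusted p = 0.00587). With the replicate number as a block no call changed. The block cannot move the mean difference of the PYGB share, -6.97 percentage points. Its exact permutation p was then 0.25, the smallest that 3 pairs allow. With the most counted bin per its length the differences were smaller, -4.03 points for PYGB and 4.09 points for PYGL. By the median over bins of at least 50 bases they were -6.06 and 5.89 points. With replicates left out, the PYGB difference ran from -8.61 to -5.61 points. Same-numbered libraries had correlations of -0.11, 0.17 and 0.10, so the numbers were not taken to pair the samples. The study's added fold threshold left 0 of the 9 genes called (0 higher, 0 lower), and 0 of the listed genes likewise. Leaving out replicates gave 0 to 1 called bins, 4 to 5 called genes of the 9 and 10 to 15 called genes of the list.

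Signs turned among genes not called. With library totals UGP2 was at 0.0324. With the most counted bin PYGM was at -0.11, GYS2 at -0.11 and the PYGM share at -0.0591 percentage points. Over the replicates left out, log2 fold changes ran from -0.0225 to 0.10 for PYGL, from -0.0223 to 0.11 for GBE1, from -0.0076 to 0.0833 for GYG1, from -0.0735 to 0.0207 for UGP2, from -0.0191 to 0.13 for EPM2A, from -0.0152 to 0.0303 for GSK3B and from -0.0467 to 0.0658 for PRKAB1. The value less neighbours was -0.01 for PYGL with 5 genes on each side and 0.0185 for GBE1 with 20. The cause of these turns was not tested. PYGM had 98 to 183 counts per library. The scaling alternatives moved the median of all genes by at most 0.06.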
